A study of Mus musculus with 18 samples.

Results

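Untreated bone marrow-derived macrophages (BMMs) that overexpress the glucocorticoid-induced leucine zipper (GILZ TG) were compared with those of WT mice. The comparison holds 6 of the 18 libraries of the study, 3 of GILZ TG and 3 of WT, chosen by their labels, and all genes with enough counts were tested. The study profiled poly(A) RNA of BMMs of 3 genotypes (WT, GILZ KO, GILZ TG), without treatment and after 4 h with lipopolysaccharide (LPS). All mice were female C57BL/6J, and the animals of the study were 10 to 23 weeks old. Bone marrow from femur and tibia was differentiated for 6 days with 50 ng/ml M-CSF, the growth factor of macrophages, and labels give no further treatment for the 6 libraries used here. By the study's methods the mice named WT were not free of transgenes, since all genotypes are described as carrying the Cre recombinase under the endogenous Lyz2 promoter (Lyz2tm1(cre)Ifo). The library labels give only WT, and the level of Lyz2 itself, given with its values after Tsc22d3, was not alike in WT and the other genotypes. GILZ TG mice carried in addition a Tsc22d3/Gilz-1 cDNA in the ROSA26 locus behind a loxP-flanked stop cassette (Tsc22d3Rosa26EGFPtg), so that the cDNA is expressed where Cre is active, in cells of the myeloid lineage. GILZ KO mice, whose values are given beside some genes, had loxP sites around exon 6 of Tsc22d3 (Tsc22d3 f/f). The study describes 3 mice per group and independent preparations, and the number of Cre alleles per animal is not given in the sources used here.

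GILZ is a small leucine zipper protein of the TSC22 domain family that is encoded by Tsc22d3. Its transcription is induced by glucocorticoids through the glucocorticoid receptor, and it is known for binding NF-kB and AP-1 proteins and for limiting inflammatory gene expression in macrophages. Macrophages express it at rest and lower it when they meet bacterial products such as LPS.

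The coding sequence of the short form of GILZ is shown because the transgene is a cDNA of this gene, whereas the counts are summed over all its transcripts. It was taken from transcript Tsc22d3-201 of the GENCODE annotation (GRCm38, minus strand, coding bases within chrX:140540871-140542967). It has 411 bases without the stop codon, which is 137 codons, in 3 exons. Capitals mark the 122 bases of its own first coding exon (chrX:140542846-140542967), and the 289 bases in lower case are shared with the coding transcripts Tsc22d3-203 and Tsc22d3-204, which start with other coding exons of 314 and 50 bases. The first 300 of the 411 bases are printed.
Tsc22d3-201, first 300 coding bases: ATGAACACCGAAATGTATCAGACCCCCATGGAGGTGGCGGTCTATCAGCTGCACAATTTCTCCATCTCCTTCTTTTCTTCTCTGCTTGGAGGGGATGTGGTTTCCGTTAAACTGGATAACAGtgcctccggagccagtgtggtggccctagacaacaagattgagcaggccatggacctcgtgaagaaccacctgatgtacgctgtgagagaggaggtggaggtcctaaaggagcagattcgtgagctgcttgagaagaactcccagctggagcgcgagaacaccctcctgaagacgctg

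Tsc22d3 (chrX:140539528-140600659) was at 15.8, 14.9 and 18.8 TPM in the WT libraries and at 155.9, 159.8 and 152.0 TPM in GILZ TG. All GILZ TG libraries were close to each other and far above WT. The log2 fold change of the counts was 2.63 (SE 0.11, adjusted p = 3.73e-06 from edgeR's quasi-likelihood test), a 6.19-fold rise, whereas the mean TPM was 9.45-fold higher. GILZ KO libraries were at 1.89, 2.81 and 2.31 TPM. TPM divides the counts by the transcript length, and the mean length of the Tsc22d3 transcripts, weighted by their estimated abundance, was not the same in both genotypes. It was 1968, 1971 and 1962 bases in WT and 1306, 1307 and 1369 bases in GILZ TG, a log2 ratio of -0.57. The groups did not overlap, and the exact two-sided permutation test gave p = 0.1, the smallest possible with 3 against 3 libraries. Among 9455 genes with at least 5 TPM in both genotypes, only Gm10241 had a larger change of this length, and the median size of the log2 ratio was 0.0071. The annotated coding transcripts are 1974 bases (Tsc22d3-201), 1552 bases (Tsc22d3-203) and 952 bases (Tsc22d3-204) long. The deposited values are sums per gene, so the share of each transcript was not tested.

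Both loci that carry the modified alleles were among the genes that fell most. Lyz2 (chr10:117277331-117282321), which encodes the antibacterial enzyme lysozyme and is the locus of the Cre gene, was at 11048, 12070 and 15401 TPM in WT and at 17.2, 28.7 and 53.1 TPM in GILZ TG. This was the largest log2 fold change among the genes called, -8.61 (SE 0.46, adjusted p = 2.16e-05 from edgeR). GILZ KO libraries were at 28.2, 45.8 and 26.7 TPM, so both modified genotypes differed from WT in the transcript of the Cre locus. Whether the WT libraries carried the Cre insertion on both alleles, on 1 or on none was not tested, and differences that go with the Cre locus and with GILZ cannot be told apart in GILZ TG against WT. The related gene Lyz1, next to Lyz2 on the chromosome, was at 2.79, 3.73 and 4.80 TPM in WT and at 6.45, 4.63 and 6.16 TPM in GILZ TG, where the ranges overlapped (log2 fold change 0.59, SE 0.23, adjusted p = 0.285 from edgeR). Gt(ROSA)26Sor (chr6:113067428-113077333), the noncoding transcript of the ROSA26 locus, was at 13.8, 13.7 and 14.8 TPM in WT and at 2.06, 1.07 and 0.77 TPM in GILZ TG (log2 fold change -4.24, SE 0.26, adjusted p = 7.03e-05 from edgeR). In GILZ KO, without a cassette in this locus, it was at 9.72 to 11.1 TPM. The genes around these loci were then examined. Of 23 tested neighbours that start within 1 Mb of Gt(ROSA)26Sor, 0 passed the threshold with edgeR, with log2 fold changes from -0.19 (Fancd2) to 0.74 (Gm26799) and 6 genes at an unadjusted p under 0.05, which 14.1% of all genes tested reached. Of 13 tested neighbours of Lyz2, 0 passed, from -0.15 (Slc35e3) to 0.59 (Lyz1), with 1 gene (Lyz1) at an unadjusted p under 0.05. With DESeq2 in place of edgeR, 0 and 0 of these neighbours passed. Chromosomes 6 and 10, which hold the loci, carried 10 and 9 of the 79 called genes with a known position, or 12.7% and 11.4%, and 4.80% and 4.82% of the genes tested.

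**Figure D1:**
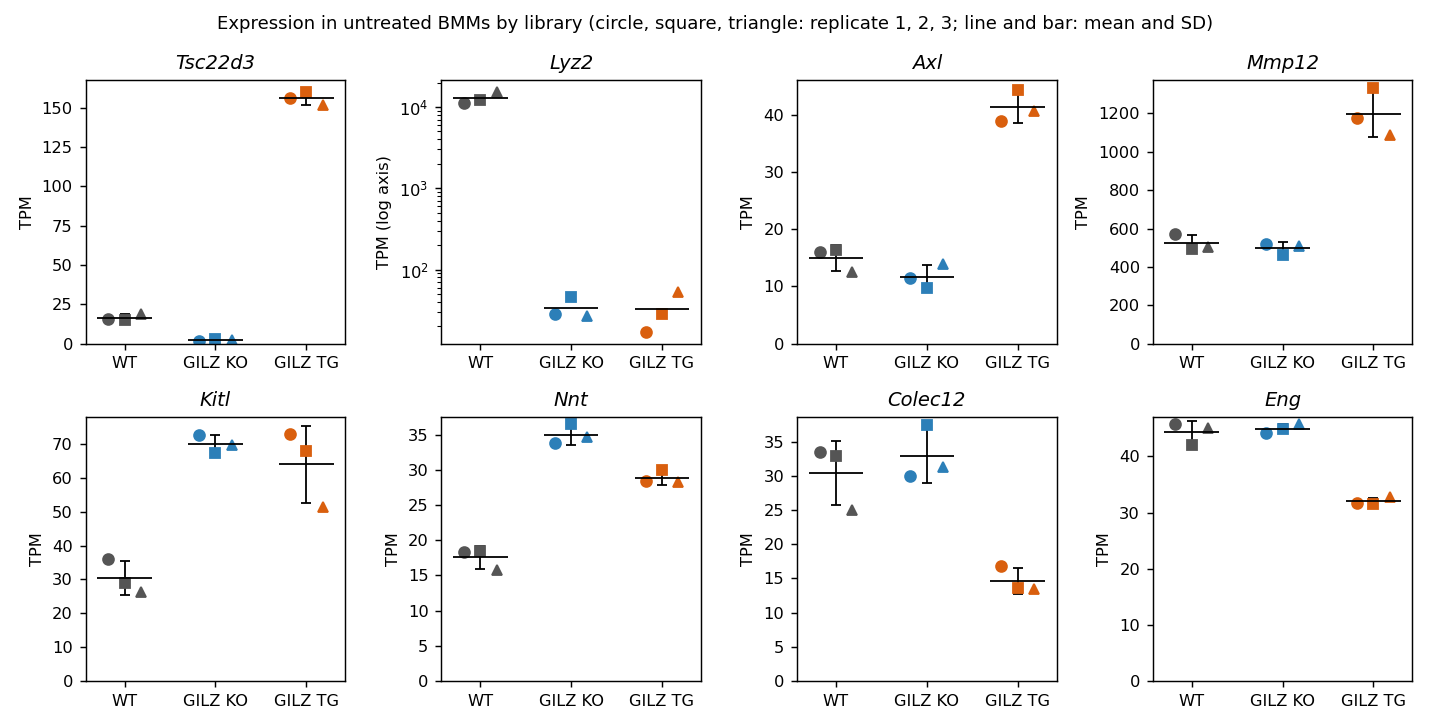
TPM of 8 genes in the untreated WT, GILZ KO and GILZ TG libraries, with replicate 1 as a circle, replicate 2 as a square and replicate 3 as a triangle, and the mean as a line with the SD as a bar (no bar for Lyz2, which is on a log axis). The GILZ TG libraries did not overlap with WT in any of the 8 genes, and in Tsc22d3, Lyz2, Kitl and Nnt the GILZ KO libraries also lay apart from WT.

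The libraries compared had between 21167579 and 29832430 reads on genes, and between 11563 and 11872 genes at 1 TPM or more. All were macrophages by their markers, since each of the 10 macrophage markers was detected in every library and their summed level was 4596 to 5269 TPM for WT libraries and 5052 to 5339 TPM in GILZ TG. Markers of other cell types differed between the libraries. The summed level of 20 stromal markers was 25.9 to 47.5 TPM in WT libraries, 231.9 and 268.1 TPM in GILZ TG replicates 1 and 2, and 22.1 TPM in replicate 3. Their most abundant members are the matrix genes Col1a1, Col1a2 and Sparc, and at most 3 of the 20 were at 0 in a WT or GILZ TG library. In the same libraries, 10 smooth muscle and pericyte markers summed to 191.6 to 207.9 TPM in WT against 317.1, 343.5 and 194.6 TPM in GILZ TG, and 12 markers of the neutrophil lineage to 42.4 to 80.5 TPM in WT against 203.5, 496.8 and 88.5 TPM in GILZ TG. The 18 of 20 B and plasma cell markers with an identifier summed to 31.7 to 35.7 TPM in WT against 107.3, 204.1 and 40.6 TPM in GILZ TG, while Pax5 and Vpreb3 were at 0 in all 6 libraries. Of the 16 stromal markers tested, 0 passed the threshold with edgeR (16 at an unadjusted p under 0.05, 0 with DESeq2). The median of their log2 fold changes was 2.25, and without GILZ TG replicate 3, where more of them had enough counts, 17 of 17 passed (5.16% of all genes tested in that fit). Endothelial, mast cell, T and NK cell, adipocyte, osteoblast, dendritic and erythroid lists had no member called, including Spp1 and Lpl, which macrophages express themselves. Few of their members had enough counts for a test, in this order 5 of 10, 1 of 10, 1 of 12, 2 of 8, 2 of 8, 2 of 10 and 2 of 11. Markers of stromal cells, neutrophils and B cells were thus higher in GILZ TG replicates 1 and 2 than in replicate 3 and WT, and their part in the results on other genes was not tested. Fewer cells of a type and less RNA per cell cannot be told apart in such libraries.

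**Figure D2:**
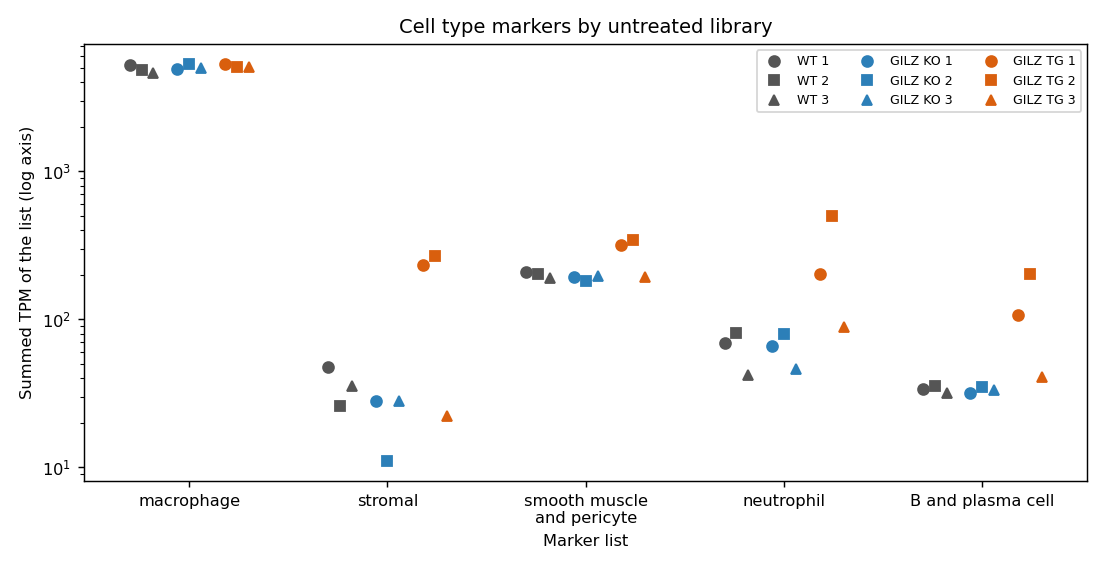
Summed TPM (log axis) of 5 lists of cell type markers in each untreated library, with WT in grey, GILZ KO in blue and GILZ TG in orange, and replicates 1, 2 and 3 as circle, square and triangle. The macrophage sum was between 4596 and 5339 TPM in WT and GILZ TG, whereas the stromal sum was 231.9 and 268.1 TPM in GILZ TG replicates 1 and 2 and 22.1 TPM in replicate 3.

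Of 12621 genes tested, 81 differed between GILZ TG and WT at an adjusted p under 0.05 (0.642% of the genes tested), 46 of them higher and 35 lower in GILZ TG. The changes were moderate, as the median size of the log2 fold change was 0.72 and 27 of the 81 genes changed by 1 or more on the log2 scale. Over all genes tested, the median log2 fold change was -0.004. The TPM of the groups did not overlap in 80 of the 81 genes, the exception being Rgl1, and in 14.9% of all genes tested (9.75% with GILZ TG higher and 5.1% with GILZ TG lower). In 67 genes, 39 higher and 28 lower, the GILZ TG libraries moved evenly, which here means that the smallest of the 3 log2 ratios to the WT mean was at least 0.5 times the largest. The other 14 genes were uneven, and in 8 of these GILZ TG replicate 3 was nearest to WT, among them the higher genes Itgax, Cd72, Egr2, Hbegf, Ctnnd2 and Crim1. In all 81 genes GILZ TG replicate 3 lay outside the range of the WT libraries. All these libraries entered the test that called the genes, so this count and that of even change are not separate support. No share over all genes is given for either.

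**Figure D3:**
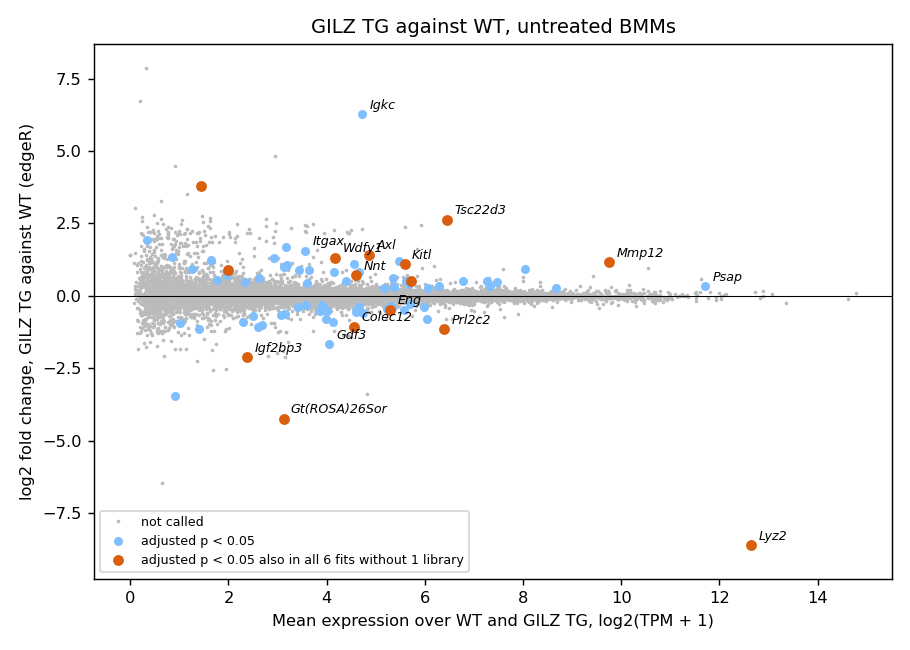
log2 fold change of GILZ TG against WT from edgeR (vertical axis) against mean expression as log2(TPM + 1) (horizontal axis) for the 12621 genes tested in untreated BMMs, with the 81 genes at an adjusted p under 0.05 in colour. Lyz2, Tsc22d3, Mmp12 and the other genes in orange passed in all 6 fits that each left out 1 library.

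The count rested on the libraries used. It was 39, 16 and 87 without WT replicate 1, 2 or 3, and 28, 19 and 665 without GILZ TG replicate 1, 2 or 3. Without replicates 1 and 2 of GILZ TG together, which leaves 1 GILZ TG library whose spread is taken from the other groups, it was 26, of which 18 were among the 81 (an alternative chosen after seeing the data). All 81 genes passed again without GILZ TG replicate 3, and of the 584 further genes in that fit, 397 were higher in GILZ TG and 239 had GILZ TG replicate 3 within the range of WT. The 584 were selected by leaving that library out and no share over all genes is given, so the 239 do not show that it deviates. Of the 81 genes, 15 passed the threshold in all 6 fits with 1 library left out, and all 15 were evenly changed. They were 9 higher genes, Tsc22d3, Axl, Mmp12, Kitl, Nnt, Wdfy1, Adgrg6, Parvg and a gene without a symbol, and 6 lower genes, Lyz2, Gt(ROSA)26Sor, Igf2bp3, Prl2c2, Colec12 and Eng. A further 22 genes passed in only 1 of these 6 fits. Over all genes, 5.16% of the 12893 tested were called without GILZ TG replicate 3, and 87 of 12861 without WT replicate 3. The counts of list genes called in these 2 fits, given with each list, are to be read beside those shares.

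**Figure D4:**
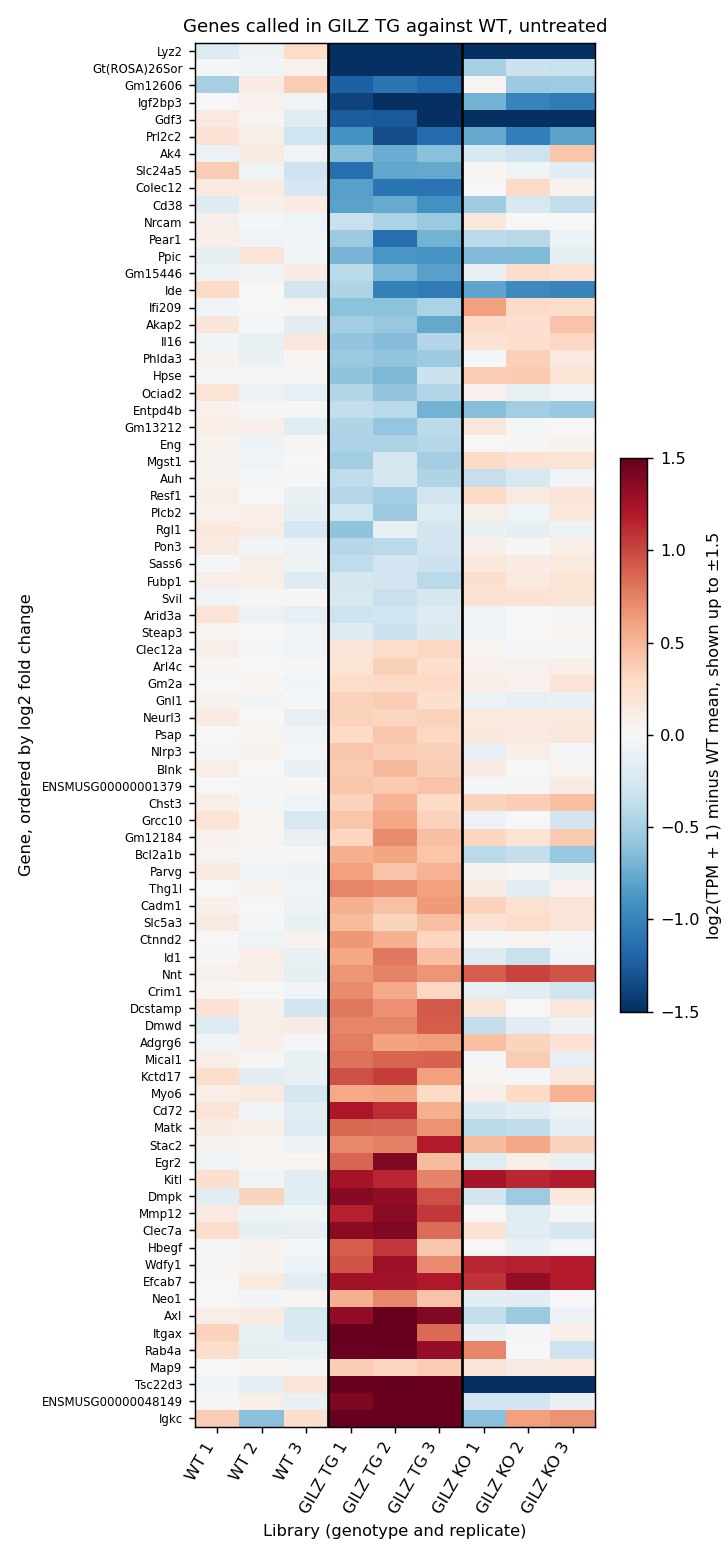
log2(TPM + 1) minus the WT mean, in colour up to 1.5 in either direction, for the 81 genes called (rows, ordered by log2 fold change) in the 3 WT, 3 GILZ TG and 3 GILZ KO untreated libraries (columns). The GILZ TG columns lay on the same side of the WT mean within each row, and rows such as Kitl, Nnt, Wdfy1 and Igf2bp3 had the same colour in GILZ KO.

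Receptors of uptake and pattern recognition changed in both directions. Axl (chr7:25757273-25788705), a TAM receptor tyrosine kinase that binds Gas6 on dead cells, was at 16.1, 16.4 and 12.4 TPM in WT and at 39.02, 44.4 and 40.6 TPM in GILZ TG. The GILZ TG values were close together and above each WT value (log2 fold change 1.43, SE 0.12, adjusted p = 0.000591 from edgeR), and GILZ KO libraries were at 11.4, 9.80 and 13.9 TPM. Axl was the only 1 of 12 tested genes for TAM receptors and dead-cell uptake that was called, and the median log2 fold change of this list was 0.044, and 2 of the 12 were called without GILZ TG replicate 3. Clec7a, which encodes the beta-glucan receptor dectin-1 and is annotated as a polymorphic pseudogene in the release used here, was at 31.1, 23.2 and 23.6 TPM in WT and at 67.5, 69.3 and 46.9 TPM in GILZ TG (log2 fold change 1.21, SE 0.15, adjusted p = 0.00708 from edgeR). It missed the threshold without WT replicate 2 (adjusted p = 0.0577). Colec12 (chr18:9707595-9882644), a scavenger receptor with a C-type lectin domain, went the other way. It was at 33.5, 32.8 and 25.0 TPM in WT and at 16.8, 13.6 and 13.5 TPM in GILZ TG (log2 fold change -1.07, SE 0.12, adjusted p = 0.00461 from edgeR). Marco, a scavenger receptor for bacteria and particles, was at 27.7, 34.7 and 31.7 TPM in WT and at 12.8, 10.6 and 11.9 TPM in GILZ TG. The groups did not overlap, but the difference did not pass with edgeR (log2 fold change -1.43, SE 0.31, adjusted p = 0.0864). It did pass with DESeq2 (adjusted p = 0.00908), and with edgeR without a filter on low counts (0.0112) or on only these 6 libraries (0.00713). In the 6 edgeR fits with 1 library left out, Marco passed in 0 (adjusted p = 0.0524 to 0.311). Neither did it pass with limma (0.104 and 0.0992), or with edgeR using the replicate block (0.0642) or all 18 libraries (0.0595). The GILZ KO libraries, which enter the main fit for its spread, were uneven in Marco, at 26.6, 69.2 and 32.4 TPM. Over the 19 tested scavenger and lectin receptors, 1 rose, 1 fell and the median was -0.09, and without GILZ TG replicate 3 the calls were 5 of 20.

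Among the Fc and complement receptors and components, 1 of 18 tested genes rose and 0 fell. At an unadjusted p under 0.05 there were 9, beside 14.1% of all genes tested. Without GILZ TG replicate 3, 4 were called, beside 5.16% of all genes. The gene that rose was Itgax, which encodes the integrin CD11c, at 7.05, 4.86 and 4.39 TPM in WT and at 17.4, 20.6 and 10.4 TPM in GILZ TG (log2 fold change 1.56, SE 0.23, adjusted p = 0.0194 from edgeR). The rise was larger in GILZ TG replicates 1 and 2 than in replicate 3, and the gene missed the threshold without WT replicate 2 (adjusted p = 0.124), GILZ TG replicate 1 (0.0634) or GILZ TG replicate 2 (0.0672).

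Matrix metalloproteinases remodel the extracellular matrix, and Mmp12 (chr9:7344381-7369499) encodes macrophage elastase. It was at 572.9, 495.5 and 501.3 TPM in WT and at 1175, 1332 and 1089 TPM in GILZ TG, where all libraries lay above WT. The log2 fold change was 1.15 (SE 0.08, adjusted p = 0.000158 from edgeR), and GILZ KO libraries, at 521.8, 460.8 and 509.6 TPM, were within or just below the WT range. Of the 14 tested metalloproteinases and TIMPs, only Mmp12 was called, and the median of the list was 0.45. At an unadjusted p under 0.05 there were 8, and 6 were called without GILZ TG replicate 3. Mmp2 was, as the stromal markers, higher in GILZ TG replicates 1 and 2 than in replicate 3 and WT. Mmp9 was also lowest in replicate 3 among the GILZ TG libraries, but in GILZ TG replicate 2 it lay within the WT range. Mmp2, a gelatinase of stromal cells, was at 0.55, 0.28 and 0.34 TPM in WT and at 1.48, 2.05 and 0.36 TPM in GILZ TG (log2 fold change 1.72, SE 0.54, adjusted p = 0.191 from edgeR). Mmp9, the gelatinase of macrophages and neutrophils, was at 320.4, 239.5 and 223.2 TPM in WT and at 353.2, 306.0 and 160.7 TPM in GILZ TG (log2 fold change 0.07, SE 0.29, adjusted p = 0.943). By library, the median log2 ratio of the list to the WT mean was 0.46, 0.28 and -0.04 in GILZ TG replicates 1, 2 and 3.

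Factors that act on other cells were also among the genes called. Kitl (chr10:100015630-100100416), the ligand of the receptor Kit, was at 36.0, 28.8 and 26.4 TPM in WT and at 73.1, 67.9 and 51.3 TPM in GILZ TG (log2 fold change 1.09, SE 0.09, adjusted p = 0.000591 from edgeR). GILZ KO was as far from WT, at 72.7, 67.5 and 69.8 TPM (log2 fold change against WT 1.08, adjusted p = 0.00102), and the difference between GILZ TG and GILZ KO was 0.004 (adjusted p = 0.984). Both comparisons use the same WT libraries. Hbegf, an EGF-like growth factor, was at 1.21, 1.34 and 1.21 TPM in WT and at 3.22, 3.71 and 1.97 TPM in GILZ TG (log2 fold change 1.23, SE 0.23, adjusted p = 0.0482 from edgeR). It was the only 1 of 17 tested growth and vascular factors called, and of the 6 fits with 1 library left out it passed in 1, without GILZ TG replicate 3 (adjusted p = 0.00148). In the other 5 the adjusted p was 0.0805 to 0.199. Of the 17 factors, 9 were at an unadjusted p under 0.05 and 6 were called without GILZ TG replicate 3. Gdf3, a member of the TGF-beta superfamily, fell from 26.2, 24.1 and 20.6 TPM in WT to 9.32, 9.25 and 3.85 TPM in GILZ TG (log2 fold change -1.67, SE 0.26, adjusted p = 0.0251 from edgeR). It passed without WT replicate 3 or GILZ TG replicate 3 and not in the other 4 fits with a library left out (adjusted p = 0.0531 to 0.123), and GILZ KO had 7.54, 5.16 and 6.07 TPM. Eng (chr2:32646595-32682669), the TGF-beta co-receptor endoglin, changed little but evenly, and was at 45.8, 42.0 and 45.0 TPM in WT and at 31.7, 31.6 and 32.7 TPM in GILZ TG (log2 fold change -0.47, SE 0.05, adjusted p = 0.00171 from edgeR), while GILZ KO was at 44.1 to 45.8 TPM. Prl2c2, a placental prolactin family gene, fell from 131.8, 120.5 and 92.1 TPM to 60.7, 44.5 and 50.4 TPM (log2 fold change -1.16, SE 0.13, adjusted p = 0.00461 from edgeR). It was also lower in GILZ KO, at 66.2, 54.9 and 64.6 TPM (log2 fold change against WT -0.93, adjusted p = 0.0356 from edgeR). The difference between GILZ TG and GILZ KO was -0.23 (adjusted p = 0.316 from edgeR). Reads of Prl2c2 can be shared with near-identical family members, so its level is uncertain.

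In several genes the GILZ KO libraries, which also had low Lyz2, lay on the same side of WT as GILZ TG. Igf2bp3 (chr6:49085223-49214957), an RNA-binding protein of the fetal program, was at 6.81, 7.22 and 6.54 TPM in WT, at 2.0, 1.72 and 1.09 TPM in GILZ TG and 3.80, 2.91 and 2.76 TPM in GILZ KO. The log2 fold change against WT was -2.11 in GILZ TG (SE 0.19, adjusted p = 0.00085 from edgeR), against -1.15 in GILZ KO (adjusted p = 0.0563). Nnt (chr13:119335448-119408997), the mitochondrial transhydrogenase that makes NADPH and that carries a known deletion in C57BL/6J mice, was at 18.4, 18.5 and 15.7 TPM in WT, at 28.4, 30.1 and 28.2 TPM in GILZ TG and 33.8, 36.5 and 34.6 TPM in GILZ KO. Its log2 fold change against WT was 0.70 in GILZ TG (SE 0.06, adjusted p = 0.000591 from edgeR), against 0.95 in GILZ KO (adjusted p = 6.72e-05). Wdfy1, an endosomal adaptor of Toll-like receptors, was at 11.4, 11.5 and 10.3 TPM in WT, at 22.2, 28.2 and 18.7 TPM in GILZ TG and 25.4, 25.7 and 26.3 TPM in GILZ KO. It rose by 1.31 in GILZ TG (SE 0.16, adjusted p = 0.00685 from edgeR), and GILZ KO rose by 1.62 (adjusted p = 0.00291). Efcab7, a gene of the ciliary Hedgehog pathway, was at 3.05 to 3.99 TPM in WT, 9.40 to 9.81 TPM in GILZ TG and 8.55 to 10.2 TPM in GILZ KO, a log2 fold change of 1.31 in GILZ TG (SE 0.18, adjusted p = 0.0126 from edgeR). It missed the threshold without WT replicate 2 (adjusted p = 0.0544) or GILZ TG replicate 2 (0.0672). Between GILZ TG and GILZ KO, the log2 fold change was -0.957 for Igf2bp3 (adjusted p = 0.0265 from edgeR) and -0.249 for Nnt (0.0411). It was -0.305 for Wdfy1 (0.241) and 0.116 for Efcab7 (0.716). Axl, Mmp12, Clec7a, Itgax, Eng, Colec12 and Parvg had an adjusted p of 9.38e-05 to 0.00789 in that comparison (4.94% of the genes tested were called by edgeR there). Between GILZ KO and WT theirs was 0.289 to 0.95 (0.0951% called). Their log2 fold changes of GILZ KO against WT ran from -0.53 (Axl) to 0.08 (Colec12). For Axl in GILZ KO against WT the SE was 0.13, with an unadjusted p = 0.001755 and an adjusted p = 0.289 from edgeR. Its TPM in GILZ KO (9.80 to 13.93) and in WT (12.45 to 16.44) overlapped, so an opposite change in GILZ KO is not established.

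The other higher genes named have varied roles. Parvg, the leukocyte parvin that links integrins to actin, was at 46.5, 40.6 and 39.8 TPM in WT and at 65.1, 57.3 and 60.8 TPM in GILZ TG (log2 fold change 0.51, SE 0.05, adjusted p = 0.00279 from edgeR). Adgrg6, an adhesion G protein-coupled receptor, was at 2.0, 2.26 and 2.02 TPM in WT and at 4.26, 3.69 and 3.78 TPM in GILZ TG (log2 fold change 0.89, SE 0.10, adjusted p = 0.00539 from edgeR). Rab4a, a GTPase of endosome recycling, was at 4.64, 3.24 and 3.36 TPM in WT and at 12.1, 13.8 and 10.7 TPM in GILZ TG (log2 fold change 1.70, SE 0.28, adjusted p = 0.0297 from edgeR). Although its groups were well apart, Rab4a passed in only 1 of the 6 fits with a library left out, that without GILZ TG replicate 3 (adjusted p = 0.00716), and reached 0.0605 to 0.175 in the others. Dmpk, a muscle kinase gene that neighbours the called gene Dmwd on chromosome 7, was likewise at 11.4, 16.6 and 11.6 TPM in WT and at 35.0, 34.2 and 26.3 TPM in GILZ TG (log2 fold change 1.09, SE 0.17, adjusted p = 0.0251 from edgeR), and it also passed in that 1 fit only (adjusted p = 0.00158 against 0.0524 to 0.11).

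Further lower genes were enzymes, carriers and surface proteins. Cd38, an ectoenzyme that consumes NAD, was at 6.09, 7.53 and 7.86 TPM in WT and at 3.64, 3.82 and 3.34 TPM in GILZ TG (log2 fold change -1.003, SE 0.14, adjusted p = 0.0133 from edgeR), and it missed the threshold without WT replicate 2 (adjusted p = 0.0883), GILZ TG replicate 1 (0.0576) or GILZ TG replicate 2 (0.0612). Ide, the insulin-degrading enzyme, was at 101.8, 83.5 and 66.9 TPM in WT, at 60.5, 40.4 and 39.3 TPM in GILZ TG and 47.5, 42.4 and 41.0 TPM in GILZ KO (log2 fold change of GILZ TG against WT -0.79, SE 0.15, adjusted p = 0.0471 from edgeR). Its adjusted p was 0.123, 0.197 and 0.192 without WT replicate 1, WT replicate 2 or GILZ TG replicate 2. The cation exchanger gene Slc24a5, Pear1, the cyclophilin gene Ppic and Gm15446 completed the 12 lower genes with the largest change, with log2 fold changes from -1.08 to -0.80. Slc24a5 and Ppic passed in 2, Pear1 in 1 and Gm15446 in 3 of the 6 fits with a library left out, with adjusted p up to 0.152 (Slc24a5, Pear1), 0.197 (Ppic) and 0.0811 (Gm15446), each without WT replicate 2.

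For the machinery of inflammation, few genes were called. Nlrp3, the sensor of the inflammasome, was at 66.1, 69.6 and 65.7 TPM in WT and at 89.7, 87.6 and 86.6 TPM in GILZ TG. This was an even but small rise (log2 fold change 0.34, SE 0.06, adjusted p = 0.0377 from edgeR) that passed without WT replicate 3 or GILZ TG replicate 3 (adjusted p = 0.0312 and 0.0211) and not in the other 4 of these fits (0.0928 to 0.21). It was the only 1 of 21 tested inflammasome and pyroptosis genes that was called, and their median was -0.02, with 2 called without WT replicate 3 and 2 without GILZ TG replicate 3. Of 22 Toll-like receptors and adaptors, 19 NF-kB and AP-1 factors, 11 cytokines, 24 chemokines and receptors and 29 interferon-induced genes, 0 were called with edgeR, with 6, 6, 2, 4 and 0 genes at an unadjusted p under 0.05 and 0, 1, 0, 1 and 0 called by DESeq2. Over all genes these shares were 14.1% and 2.496%. Their medians were 0.02, 0.09, 0.04, 0.06 and -0.02, beside -0.004 for all genes. Without GILZ TG replicate 3, the same 5 lists had 1, 2, 2, 3 and 0 genes called, and 1 chemokine list gene was called without WT replicate 3. Abundant members of these lists did not pass. The groups did not overlap in Tnf, which was at 143.0 ± 14.8 TPM in the WT libraries and 170.6 ± 12.7 TPM in those of GILZ TG (mean ± SD, n = 3 each). They overlapped in Cd14, at 755.9 ± 64.4 and 873.8 ± 105.2 TPM, and in Ccl2, at 1644 ± 305.9 and 1704 ± 553.6 TPM. The genes of the TSC22 family other than Tsc22d3 (Tsc22d1, Tsc22d2 and Tsc22d4) were not called, while 1 of them was by DESeq2 and 1 without GILZ TG replicate 3. Of the 15 tested genes of the list of the glucocorticoid receptor (Nr3c1) and its targets, 0 were called (1 at an unadjusted p under 0.05, 0 with DESeq2), with a median of 0.07. Without GILZ TG replicate 3, 16 were tested and 1 was called, Pdk4, which had too few counts for a test with all libraries and is named after its result was seen. The most abundant member, Anxa1, was at 1278 ± 90.1 TPM in WT against 1368 ± 48.8 TPM in GILZ TG.

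Of the 7 tested nitric oxide and arginine genes, 0 were called with edgeR (0 at an unadjusted p under 0.05, 0 with DESeq2), and 2 were without GILZ TG replicate 3. Arg1, the arginase of alternative activation, was at 9.45, 9.01 and 15.1 TPM in WT and at 7.49, 10.3 and 6.00 TPM in GILZ TG (log2 fold change -0.51, SE 0.26, adjusted p = 0.419 from edgeR). Nos2 and Arg2 were too low to test, at no more than 0.19 and 0.35 TPM. The lists of energy metabolism held no called gene. Of 36 Complex I subunits, 29 had a log2 fold change above 0, where 48.9% of all genes tested had one. The median of the 36 was 0.09 and the largest value 0.20 (Ndufb3). With edgeR 0 were called and with DESeq2 0, and 5 were at an unadjusted p under 0.05, which 14.1% of all genes tested reached. For 24 subunits of Complexes II to IV the median was 0.04, for 18 glycolysis genes 0.02 and for 25 cholesterol genes -0.08, and again 0 were called in each (2, 5 and 2 at an unadjusted p under 0.05, 0, 3 and 0 with DESeq2). Without GILZ TG replicate 3, 0, 1 and 7 of these were called. Apoe, a lipid carrier and the most abundant cholesterol gene, was at 1459, 1149 and 335.2 TPM in WT and at 2261, 3180 and 518.0 TPM in GILZ TG, where replicate 3 was the lowest library of each genotype. Of 29 cell cycle genes 0 were called, 5 had a log2 fold change above 0 and the median was -0.14, and of 21 NADPH oxidase and antioxidant genes and 14 MHC presentation genes 0 were called, with medians of -0.03 and 0.10. These 3 lists had 3, 3 and 4 genes at an unadjusted p under 0.05 and 0, 1 and 3 called by DESeq2. Without GILZ TG replicate 3 each had 1 called, and without WT replicate 3 they had 0, 1 and 3.

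Lysosomal genes and transcription factors held 1 called gene each. Psap, the precursor of the saposins that help to degrade sphingolipids, was at 2967, 3040 and 2854 TPM in WT and at 3646, 3903 and 3670 TPM in GILZ TG (log2 fold change 0.33, SE 0.04, adjusted p = 0.0096 from edgeR). It missed the threshold without WT replicate 2 (adjusted p = 0.0668) or GILZ TG replicate 2 (0.0548). Of the 20 tested lysosomal genes 1 was called, 2 without GILZ TG replicate 3, and the median was 0.03. Of 22 macrophage transcription factors only Egr2, a zinc finger factor of myeloid cells, was called, at 4.96, 5.34 and 5.31 TPM in WT and at 10.3, 15.3 and 7.65 TPM in GILZ TG (log2 fold change 1.07, SE 0.19, adjusted p = 0.0377 from edgeR). It passed without GILZ TG replicate 3 (adjusted p = 0.000996) and in 0 of the other 5 fits (0.0624 to 0.197), and without that library 2 of the 22 factors were called.

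Igkc, the constant region of the kappa light chain of antibodies, had the largest rise of all genes called and is itself on the list of B cell and plasma cell markers. It was at 1.01, 0 and 0.84 TPM in WT and at 42.3, 97.4 and 11.4 TPM in GILZ TG, highest in replicate 2 and lowest in replicate 3. The other 17 markers of that list summed to 32.7, 35.7 and 30.8 TPM in WT and to 65.0, 106.6 and 29.2 TPM in GILZ TG, so their sum was above WT in GILZ TG replicates 1 and 2 only. The log2 fold change was 6.27 (SE 0.98, adjusted p = 0.0251 from edgeR), and of the 6 fits it passed only without GILZ TG replicate 3 (adjusted p = 0.000464), with 0.0524 to 0.15 in the others. Ighg2b, the constant region of an antibody heavy chain, had the same order by library, at 7.88, 27.8 and 3.09 TPM in GILZ TG and 0 to 0.84 TPM in WT.

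The contrast of GILZ TG with WT was also read in the LPS libraries, given here as a description. Whether same-numbered untreated and LPS libraries share a preparation is not given in the sources used here, and Igkc had the same order by number in both, with 43.1, 93.2 and 7.28 TPM in the GILZ TG libraries after LPS. The LPS values are therefore not read as an independent repeat. There, 56 of 12164 genes were called (0.46%), 32 higher and 24 lower. Of the 81 genes called without treatment, 30 were called after LPS, which is 37.0% of the untreated and 53.6% of the LPS calls, and all 30 kept their direction. Of the 80 tested in both, 79 had the same sign, where over all genes tested in both it was 72.0%. All 15 genes that passed in every fit with 1 library left out were called after LPS. Axl was at 1.12, Mmp12 at 1.03, Colec12 at -0.93, Nnt at 0.74, Eng at -0.50 and Parvg at 0.53 on the log2 scale after LPS (adjusted p = 0.000833 to 0.0221 from edgeR). A test of the difference between both effects over all 18 libraries called 1 of 13169 genes (0.00759%, 407 at an unadjusted p under 0.05), Tsc22d3. Its log2 fold change was 4.07 after LPS and 2.63 without treatment, with a difference of 1.43 (SE 0.16, adjusted p = 0.00139 from edgeR). After LPS, Tsc22d3 was at 4.56, 5.81 and 5.09 TPM in WT and at 127.4, 140.6 and 127.2 TPM in GILZ TG. The GILZ TG values thus stayed high, while the WT values were lower than without treatment. DESeq2 added Icam1. A fit that took same-numbered untreated and LPS libraries of a genotype as the same preparation added Lyz2.

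**Figure D5:**
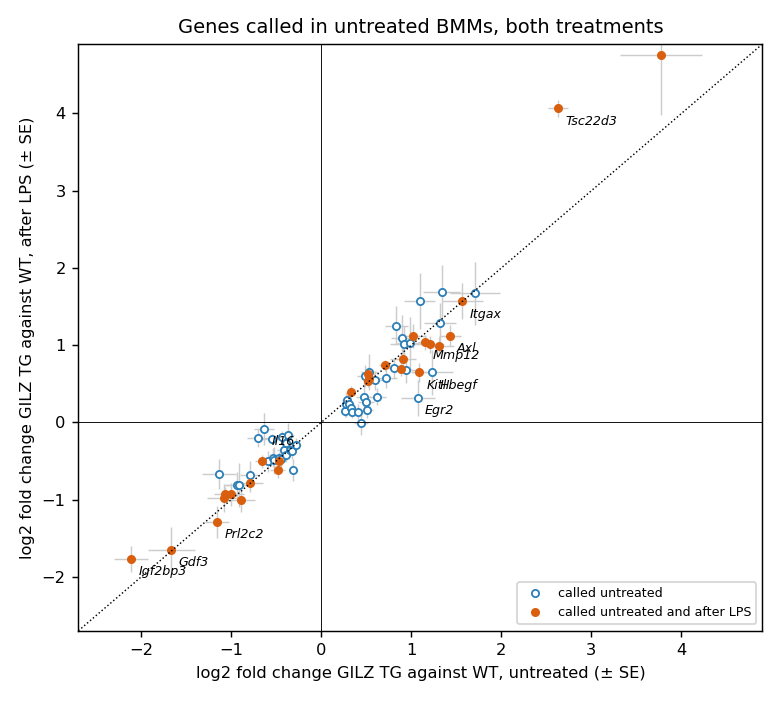
log2 fold change of GILZ TG against WT, with its SE as bars, without treatment (horizontal axis) and after LPS (vertical axis) for genes called without treatment, with genes called in both in orange and equal values on the dotted line. Lyz2, Gt(ROSA)26Sor, Gm12606 and Igkc lie outside the axes and Map9 was not tested after LPS, and Tsc22d3 lies above the line at 2.63 and 4.07.

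The starts of the called genes were searched for short motifs of factors that are known to act in macrophages or with GILZ, on both strands of 300 bases (250 before and 50 after each RefSeq start, GRCm38.p6). Of the genes called, 32 of 46 higher and 26 of 35 lower had a window, as had 9510 of the 12621 tested. TGANTCA, bound by AP-1, was in the windows of 5 higher genes (15.6%: Bcl2a1b, Clec12a, Itgax, Mmp12 and Psap) and 4 lower genes (15.4%: Ifi209, Il16, Pon3 and Slc24a5), and of 6.16% of all tested genes. GAGGAAGT, bound by the myeloid factor PU.1, was in 5 higher genes (15.6%: Bcl2a1b, Cd72, Map9, Mmp12 and Parvg), 1 lower gene (3.85%: Eng) and 4.05% of all tested genes. The E-box CACGTG was in 3.12% of higher, 15.4% of lower and 12.0% of all genes, an NF-kB site in 3.12%, 3.85% and 0.515%, and the full palindromic glucocorticoid response element in 0 of the called genes and 0.0105% of all. These shares rest on few genes and are a description with no test. The windows of 3 genes that passed in every fit with 1 library left out and hold the AP-1 or PU.1 letters are shown, with the motif in capitals. Mmp12 has another RefSeq start whose window holds the PU.1 letters. The window of Mmp12 shown holds the AP-1 letters 44 bases before the start, Eng holds the PU.1 letters on the minus strand 53 bases before it, and in Parvg the PU.1 letters begin 1 base after the first base transcribed.
Mmp12, chr9:7347124-7347423, plus strand: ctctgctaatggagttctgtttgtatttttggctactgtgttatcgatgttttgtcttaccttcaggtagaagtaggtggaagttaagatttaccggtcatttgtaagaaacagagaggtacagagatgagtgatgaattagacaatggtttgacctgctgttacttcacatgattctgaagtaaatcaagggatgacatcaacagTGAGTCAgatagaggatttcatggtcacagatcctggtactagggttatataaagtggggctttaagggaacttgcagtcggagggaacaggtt
Eng, chr2:32646345-32646644, plus strand: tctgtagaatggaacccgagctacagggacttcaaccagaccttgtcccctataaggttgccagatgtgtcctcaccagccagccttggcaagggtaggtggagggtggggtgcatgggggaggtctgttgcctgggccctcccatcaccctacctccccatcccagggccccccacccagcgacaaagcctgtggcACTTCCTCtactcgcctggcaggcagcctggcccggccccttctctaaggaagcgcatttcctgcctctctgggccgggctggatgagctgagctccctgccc
Parvg, chr15:84324470-84324769, plus strand: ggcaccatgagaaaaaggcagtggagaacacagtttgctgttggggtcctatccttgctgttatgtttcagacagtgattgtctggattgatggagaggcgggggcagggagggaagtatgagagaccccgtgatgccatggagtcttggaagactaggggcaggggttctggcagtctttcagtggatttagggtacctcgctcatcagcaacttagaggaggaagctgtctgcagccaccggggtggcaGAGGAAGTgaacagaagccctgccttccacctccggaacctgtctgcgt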

How the data were processed

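BMM RNA was sequenced after poly(A) selection with a strand-specific kit as single-end reads of 75 nt, and the authors quantified genes on GRCm38 with the grape-nf pipeline after FastQC 0.11.2. The quantifier's version, annotation release and strand setting are not given in the sources used here. Per library, the authors deposited expected counts, which share reads among transcripts and need not be whole, and TPM, which are the counts per transcript length scaled to the same sum in each library. The deposited DESeq2 1.40.2 tables hold the authors' fold changes and p-values between groups and were not used.

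Expected counts were rounded, and genes were filtered with filterByExpr, scaled by TMM and tested with edgeR 4.0.16 (quasi-likelihood, genotype only, all 9 untreated libraries, Benjamini-Hochberg adjusted p under 0.05) in R 4.3.3. The row without a gene identifier was left out. TPM describe levels per library, and ratios of even change were taken on log2(TPM + 1). Alternatives used DESeq2 1.42.0, limma 3.58.1 and each library left out in turn. On simulated counts with 200 changed genes, 12521 tested, edgeR recovered 90% of changes of 1 and 99% of changes of 2 on the log2 scale, with 4.5% false calls. DESeq2 recovered 90% and 98% of them, with 10.5% false calls. The simulated libraries had a spread set by the mean count alone and no deviating replicate. They held no changes below 1 on the log2 scale, so these shares need not hold for the measured libraries. Total counts of 21167579 to 29832430 per library set the counting precision. Positions and transcripts are from GENCODE on GRCm38, and promoter windows from RefSeq on GRCm38.p6.

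The groups were taken from the sample labels. The genes and lists described were chosen with earlier results of these data known. Named genes were Tsc22d3, Lyz2 and Lyz1, the 12 genes with the largest change in each direction among those called without overlap and with at least 5 TPM in the higher group, called genes on a list, evenly changed genes past the threshold in all 6 fits with 1 library left out, the 3 most abundant genes of lists without a call, and Mmp2, Mmp9, Nos2, Arg1, Arg2, Axl, Marco, Colec12 and Nnt. Of the abundant genes only some are printed.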

Additional observations from a re-analysis of the deposited data

Results flagged for a closer look

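The difference between GILZ TG and WT in Tsc22d3 was not the same with and without LPS. The log2 fold change was 4.07 after LPS and 2.63 without treatment, and the test of the difference itself over all 18 libraries gave 1.43 (LPS minus untreated, SE 0.16, adjusted p = 0.00139 from edgeR). It is listed here because this difference passed the threshold, as the only gene of 13169 tested. The groups of 3 libraries were too small for a test of outlying samples.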

How the results depend on the processing

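The number of genes called depended on the method and the libraries. For GILZ TG against WT without treatment, 81 genes were called, and 315 with DESeq2, 41 and 32 with limma on log2(TPM + 1) and log2(TPM + 0.1), 175 without a filter on low counts and 20 in a fit of only the 6 libraries. Leaving out 1 library gave 16 to 665, and leaving out GILZ TG replicates 1 and 2, chosen after seeing the data, gave 26. After LPS, 56 genes were called, and 274 with DESeq2, 252 with all 18 libraries in one fit, 30 and 31 with limma at the same pseudocounts, 412 without the filter, 15 with only the 6 libraries and 15 to 1067 with 1 library left out. Evenly changed genes numbered 67, and 16 to 603 with 1 library left out. The test of the LPS effect called 1 gene, 2 with DESeq2 and 2 with same-numbered untreated and LPS libraries of a genotype as a block. The cause of these shifts was not tested. Of the 79 called genes with a symbol, 79 were called by DESeq2, 66 with all 18 libraries and 18 with only the 6 libraries, and none changed direction under the alternatives run. Among the uncalled genes, Mmp2 turned to -0.10 without GILZ TG replicates 1 and 2, and Mmp9 to -0.16, -0.02, -0.01 and -0.72 without GILZ TG replicate 1, GILZ TG replicate 2, WT replicate 3, or GILZ TG replicates 1 and 2, within a range of -0.16 to 0.35 with 1 library left out.

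The labels do not say whether replicate numbers pair the libraries, and the deviations did not settle it. Those of same-numbered untreated WT and GILZ TG libraries correlated at 0.26, -0.10 and 0.12. Those of unlike numbers ran from -0.235 (WT 1 with GILZ TG 3) to 0.1 (WT 2 with GILZ TG 3). Not every library correlated best with its own number, and a batch shared by number was not tested. With the replicate block, 83 genes were called without treatment and 58 after LPS, and 18 of the 79 named calls were not among the former.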
